A study of Mus musculus with 8 samples.

Results

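The genes described here are 45 mouse genes of DNA replication and S phase, the part of the cell cycle in which the genome is copied. They were fixed by name, and each of the 45 symbols matched exactly 1 of the 55487 genes in the deposited count table. All 45 passed the filter on low counts, which left 18884 genes for testing. The table held 8 RNA-seq libraries from mouse cells labelled pro-B cells, 4 labelled CD25_KO and 4 labelled WT. CD25, a subunit of the receptor for interleukin-2, is encoded by Il2ra, and the single comparison asks which transcripts depend on it at this stage of B cell development. RNA of both groups was purified with Trizol and turned into libraries with a SMARTER mRNA-Seq kit. The strain, age, sort gate and design of the deleted allele are not given in the sources used here, and no label says whether replicates are different animals, which means that every p-value measures only the spread between these libraries. Libraries are called wild type 1 to 4 and labelled knockout 1 to 4, after the numbers in their titles.

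Replication starts when the origin recognition complex, CDC6 and CDT1 load the MCM2 to MCM7 ring onto DNA in G1, a step called licensing. In S phase CDC45 and the GINS complex turn the ring into an active helicase, and polymerases alpha, delta and epsilon copy the strands behind it, helped by the sliding clamp PCNA. Many of these genes are targets of E2F transcription factors and are transcribed in a wave around the G1 to S transition. In the bone marrow, pro-B cells and the large pre-B cells that follow them divide, whereas small pre-B cells rest, so such genes are commonly read as markers of cycling cells. In bulk RNA, fewer cells in S phase and less RNA per cell cannot be told apart.

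Library totals lay between 43974037 and 57988772 counts. Il2ra checks the labels, and its mean was 193 ± 35.9 CPM (library-scaled counts, using edgeR's TMM factors) in wild type. Labelled knockout libraries averaged 181 ± 43.1 CPM for it (both SD, n = 4). Values ran from 140 to 216 CPM in wild type and from 145 to 244 CPM in labelled knockout. Labelled knockout 3 was the highest of the 8 libraries. The log2 fold change of Il2ra was -0.09 ± 0.19 (SE), so its level did not set the groups apart and does not bear out the label. Counts summed over all exons do not show whether single exons were lost, so every direction below rests on the label. All 14 genes of the pro-B marker list were detected, from Kit at a mean of 1.48 CPM to Cd79b at 3329 CPM. The 8 genes of the pre-B list were detected as well, from Bcl6 at a mean of 13.15 CPM to Spib at 2057 CPM. Among them Ms4a1 averaged 770 CPM in wild type and 657 CPM in labelled knockout. Detection thus does not tell pro-B from pre-B cells, and the name pro-B rests on the label.

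Most replication genes had lower values in the libraries labelled knockout, and none passed the test over all genes. Of the 45 members, 39 had a log2 fold change below 0, against 49.6% of all genes tested. Their median log2 fold change (labelled knockout over wild type) was -0.42, where the median over all genes tested was 0.003. With Benjamini-Hochberg adjustment the quasi-likelihood test of edgeR called 0 members, as it called 0 of all 18884 genes (0%), and the adjusted p of the members lay between 0.391 and 0.998. DESeq2 and limma-voom also called 0 members. At an unadjusted p under 0.05, 26 members were lower and 0 higher, whereas 7.11% of all genes were lower and 5.53% higher at that level. For 19 members the 4 labelled knockout libraries all lay below the 4 wild type libraries, a separation found in 4.17% of all genes. For 0 members they all lay above, as 2.62% of all genes did. These shares describe the list, which was chosen with earlier results of these data known.

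**Figure D1:**
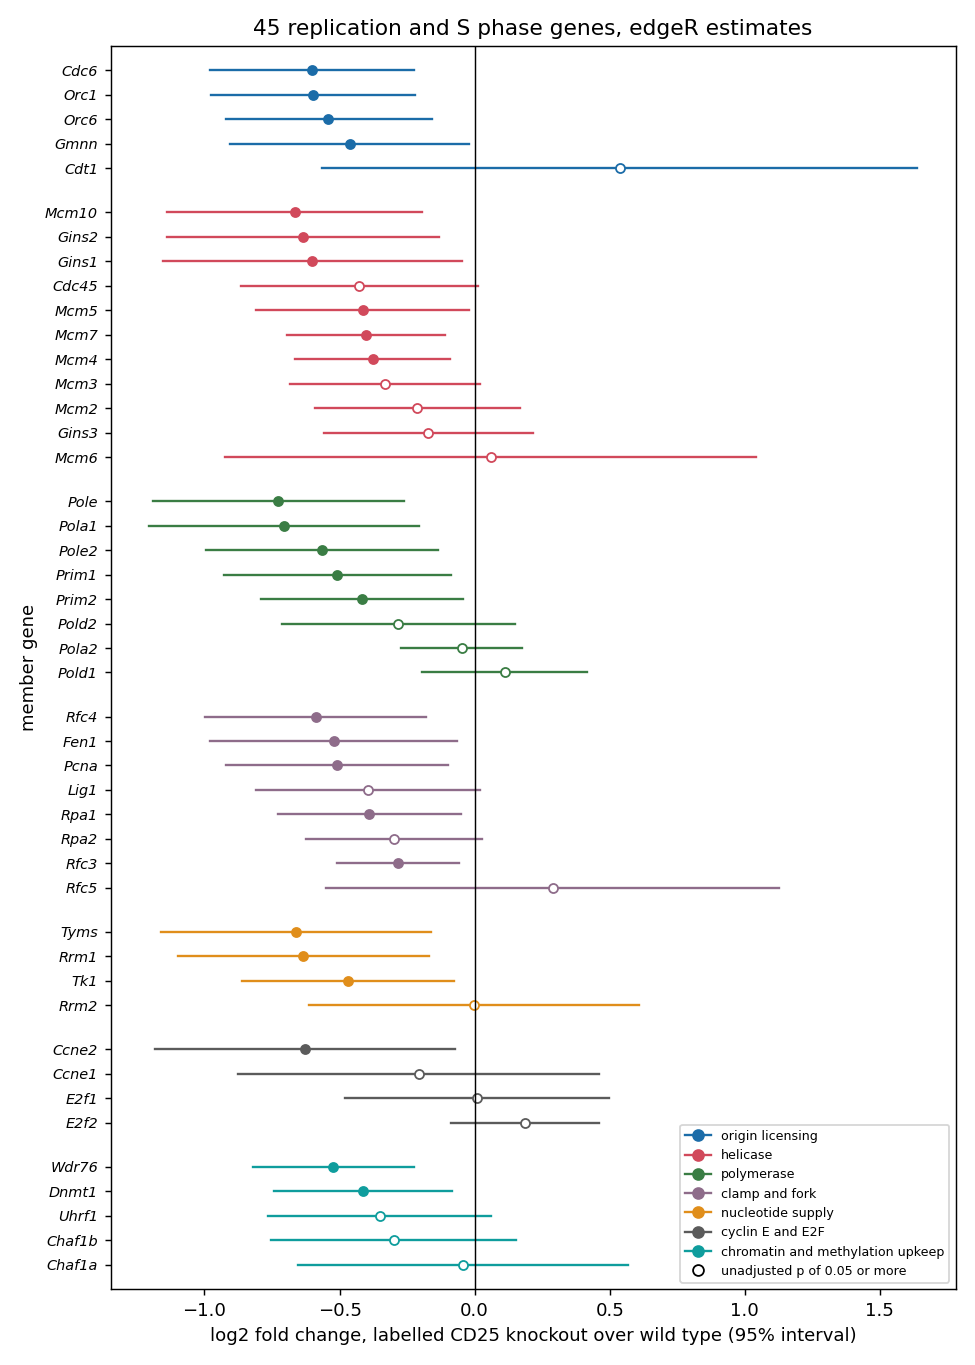
Log2 fold change of each of the 45 members (x axis, labelled CD25 knockout over wild type, edgeR estimate with its 95% interval) by gene (y axis), coloured by role. Filled points have an unadjusted p under 0.05. The 26 filled points lie left of 0, and the widest intervals belong to Cdt1, Mcm6 and Rfc5.

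The 2 groups did not differ evenly, because the 4 libraries labelled knockout differed among themselves. Relative to the wild type mean, the median member stood at 0.696 in labelled knockout 1, at 0.891 in 2, at 0.524 in 3 and at 0.876 in 4. The same ratio over all genes tested lay between 0.981 and 0.997 in these 4 libraries. Labelled knockout 3 was the lowest of the 8 libraries for 36 of 45 members, against 19.9% of all genes. In labelled knockout 1, 33 members lay below the lowest wild type library, against 28.2% of all genes, and in labelled knockout 3 there were 38, against 29.6%. In labelled knockout 2 there were 23, against 15.6% of all genes, and in labelled knockout 4 there were 25, against 20.5%. Labelled knockout 2 and 4 were thus nearer to wild type than 1 and 3 were, and 19 members lay below every wild type library in both of them, as did 7.02% of all genes. Without labelled knockout 3 the median log2 fold change of the members was -0.29, and 20 members and 3.32% of all genes were lower at an unadjusted p under 0.05.

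**Figure D2:**
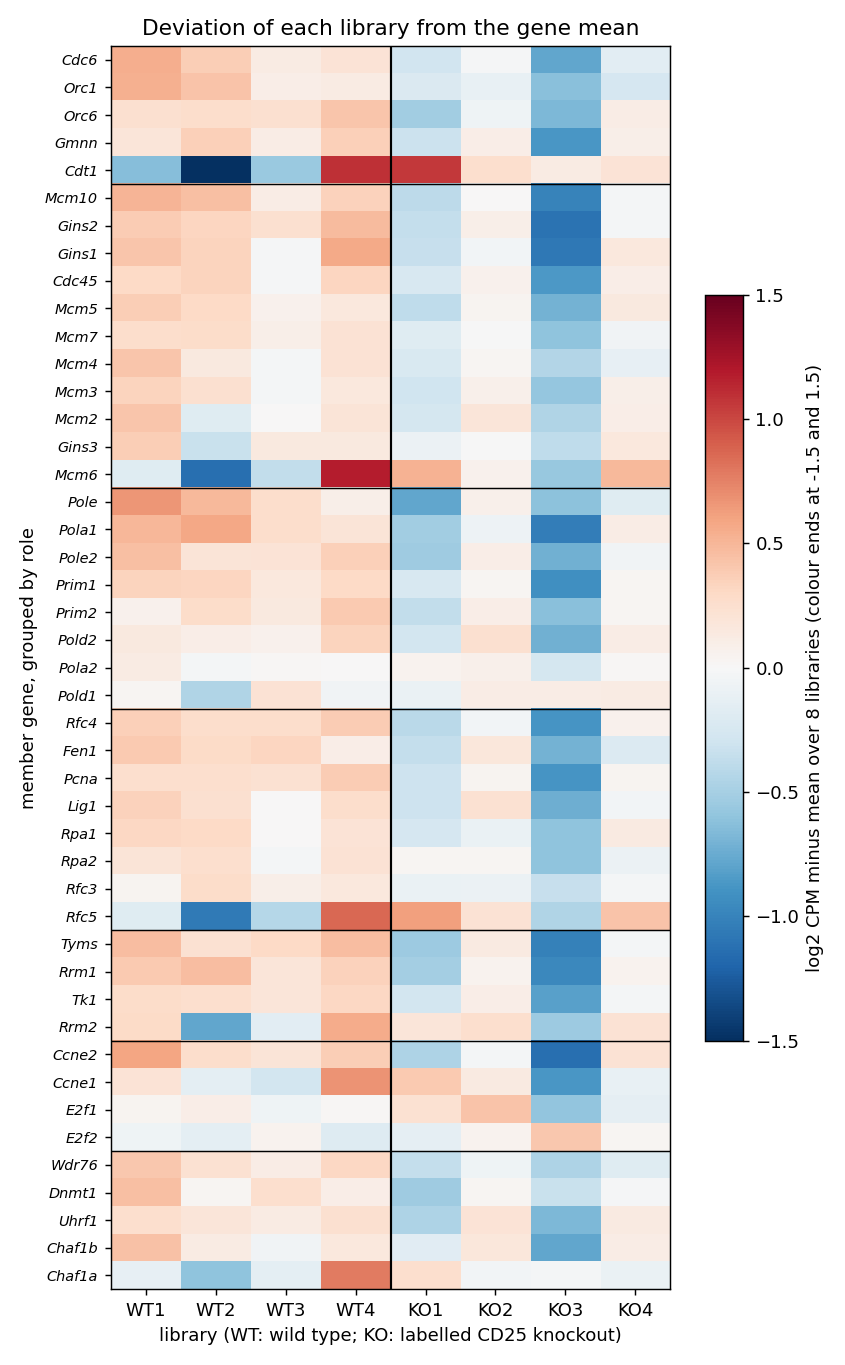
Log2 CPM of each member (rows, grouped by role) in each library (columns, 4 wild type then 4 labelled knockout), as the deviation from the gene's mean over the 8 libraries. Most rows are red in wild type and darkest blue in labelled knockout 3. Wild type 4 is the highest library for 15 members, among them Cdt1, Mcm6, Rfc5, Rrm2, Ccne1 and Chaf1a.

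Within the labelled knockout group, some other properties of the libraries also parted 1 and 3 from 2 and 4. Genes of the Y chromosome (Ddx3y, Eif2s3y, Kdm5d and Uty together) had between 483 and 505 CPM in wild type 2 and labelled knockout 2 and 4, and at most 2.79 CPM in the other 5 libraries. Xist, transcribed from the inactive X chromosome, had between 370 and 483 CPM in those 5. It had 0.348 and 1.12 CPM in labelled knockout 2 and 4, and 60.0 CPM in wild type 2, which thus held both kinds of transcript. In wild type the members did not follow the Y-linked counts. Their mean log2 deviation from the mean over the 8 libraries was 0.27, 0.07, 0.06 and 0.32 in wild type 1 to 4. The presence of Y-linked counts was also tried as a further term in the edgeR model. Among labelled knockout libraries this term equals the split of 1 and 3 from 2 and 4, so the 2 cannot be told apart. In wild type it marks wild type 2 alone. With the term the members' median log2 fold change was -0.52, and 31 members were lower at an unadjusted p under 0.05. The smallest adjusted p of the quasi-likelihood test, of a member as over all genes, was 0.0687. The share of all genes lower at an unadjusted p under 0.05 was then 12.4%. The summed markers of erythroid cells, neutrophils, monocytes and natural killer cells were also lowest in labelled knockout 1 and 3. Over all genes tested, 49.6% had a log2 fold change below 0, the share to set beside the counts that follow. Of the erythroid list 10 of 11 tested genes were lower, with summed levels between 3387 and 9013 CPM in wild type and between 560 and 2633 CPM in labelled knockout. All 13 neutrophil genes were lower, with sums of 271 to 584 and 122 to 507 CPM. Of the natural killer list 9 of 10 tested genes were lower, with sums of 38.04 to 57.5 and 9.92 to 34.0 CPM. Of the monocyte and macrophage list 9 of 10 tested genes were lower, with sums of 137 to 243 and 40.6 to 177 CPM. The T cell list had 4 of 7 tested genes lower, with sums of 29.5 to 38.3 and 21.8 to 33.8 CPM. Most of these sums came from Lck, at a mean of 28.6 CPM, while the defining gene Cd3e had a mean of 0.0437 CPM. Other lists did not fall. The plasma cell list had 3 of 5 tested genes higher, with sums of 66.8 to 200 and 108 to 238 CPM, highest in labelled knockout 1. Most of the sum in that library came from Sdc1 and Xbp1, at 106 and 102 CPM, while Jchain had 0.969 CPM. All 4 tested stem and progenitor genes were higher, with sums of only 7.91 to 10.4 and 7.49 to 11.8 CPM. The pre-B list had 4 genes lower and 4 higher, with sums of 4054 to 5283 and 4465 to 5487 CPM, highest in labelled knockout 3. No gene of these lists was at 0 in every library. Mitochondrial genes took 3.18% to 3.45% of the counts in wild type and 2.55%, 3.30%, 2.54% and 2.85% in labelled knockout 1 to 4, and the part of RNA or cell quality was not tested. Over all genes tested, 7.11% were lower and 5.53% higher at an unadjusted p under 0.05. Of the pro-B list 10 of 14 genes had a log2 fold change below 0, with 2 lower and 1 higher at that level. The 2 were Igll1 and Vpreb1, which encode the surrogate light chain of the pre-B cell receptor, with log2 fold changes of -0.92 ± 0.40 and -0.86 ± 0.38 (SE). Both were lowest in labelled knockout 3. Ebf1, a transcription factor of the B lineage, had one of 0.40 ± 0.13 (SE) and was highest in labelled knockout 3. Erythroid and myeloid precursors in the marrow also divide, and the part of such cells, or of a shift between B cell stages, in the members' values was not tested.

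Because the members tended to move together, the promoters were searched for the site bound by E2F factors. The RefSeq table (GRCm38.p6, the same assembly as mm10) held 38 of the 45 members, with windows from 250 bases before to 50 bases after a start. The letters searched, on both strands, were TTTCCCGC, TTTGGCGC, TTTCGCGC and TTTGCCGC, which can overlap each other. Of the 38 members 16 had at least 1 match, which is 42.1%, against 2.6% of 27025 genes in the table. Of the lists described further below, the further G1 to S regulators had 41.2% and the further replication genes 27.5%. The fork repair genes had 15.0% and the G2 and mitosis genes 6.2%, so the share was not particular to the members. Counted by promoter, 33.3% of 48 member promoters and 2.3% of all 32851 promoters had one. The CCAAT box, the site of NF-Y and a common partner of cell cycle promoters, was in 60.5% of these members and 41.1% of all genes. It was in 87.5% of the G2 and mitosis genes, and in 47.5%, 47.1% and 40.0% of the further replication, G1 to S and fork repair genes. The promoters of 3 members with a match are printed, since their matches lie before the start and outside annotated exons. They belong to Mcm5 and Mcm6, subunits of the helicase ring, and to Pola1, the catalytic subunit of polymerase alpha. Capitals mark the matched letters, and all 3 are written 5′ to 3′ on the strand of the gene, for the 170 bases before the RefSeq start.

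Mcm5 (chr8:75109339-75109508, plus strand): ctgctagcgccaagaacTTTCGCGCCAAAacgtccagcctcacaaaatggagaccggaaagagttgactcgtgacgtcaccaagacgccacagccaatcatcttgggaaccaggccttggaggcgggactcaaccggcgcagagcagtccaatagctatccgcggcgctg
Mcm6 (chr1:128359706-128359875, minus strand): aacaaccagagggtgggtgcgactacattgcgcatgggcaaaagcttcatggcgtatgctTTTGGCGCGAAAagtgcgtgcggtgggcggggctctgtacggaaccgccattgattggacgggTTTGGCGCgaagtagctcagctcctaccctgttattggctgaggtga
Pola1 (chrX:93632156-93632325, minus strand): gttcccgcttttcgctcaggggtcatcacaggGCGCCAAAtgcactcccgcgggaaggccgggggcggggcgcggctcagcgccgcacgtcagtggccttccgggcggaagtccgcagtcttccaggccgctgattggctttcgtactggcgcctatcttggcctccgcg

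Mcm5 holds 2 overlapping matches in 1 run, Mcm6 holds 3 and Pola1 holds 1. The 16 members with a match had a median log2 fold change of -0.37, the 22 without had -0.41, and the 7 that were not in the table had -0.60. Only exact letters in these windows were searched, so members without a match may hold E2F sites that were missed. The split therefore cannot show whether E2F sites go with lower values. Cdt1, the member with the highest log2 fold change, and Pola1, with one of the lowest, both had a match. These are matches of letters and were not tested for binding.

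**Figure D3:**
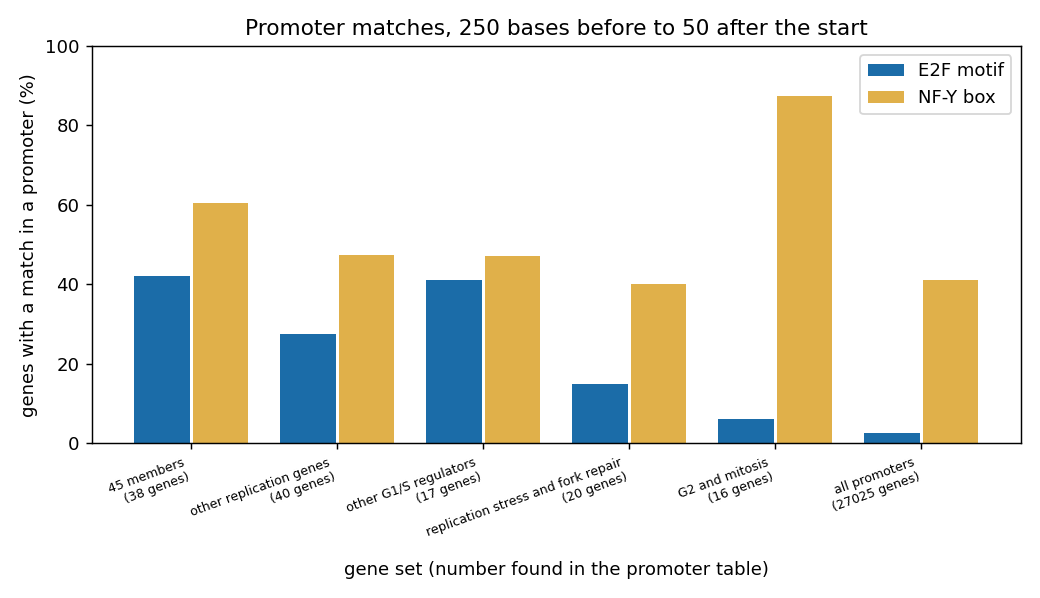
Share of genes (y axis, percent) with a match to the E2F letters (blue) or the NF-Y box (yellow) in a promoter window, for the members, 4 other gene lists and all genes of the promoter table (x axis, with the number of genes found). The members stand at 42.1% for E2F against 2.6% of all genes, with the further G1 to S regulators at 41.2% and the G2 and mitosis list at 6.2%.

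The licensing genes parted into 4 with lower values and 1 with a higher value. Cdc6, the ATPase that recruits the MCM ring to origins (chromosome 11, 98907801 to 98923940, plus strand, in the mm10 coordinates of the deposited table), had 93.1, 81.9, 69.2 and 73.5 CPM in wild type 1 to 4. In labelled knockout 1 to 4 it had 52.3, 62.9, 36.95 and 56.9 CPM. Every labelled knockout library lay below every wild type library, with a log2 fold change of -0.60 ± 0.17 (SE). Orc1, the largest subunit of the origin recognition complex, had 15.8, 14.7, 11.7 and 11.9 CPM in wild type 1 to 4 and 9.42, 10.1, 7.09 and 9.17 CPM in labelled knockout 1 to 4. Its groups did not overlap either, and its log2 fold change was -0.60 ± 0.17 (SE). Orc6, another subunit, had means of 68.7 ± 4.07 and 47.2 ± 11.96 CPM (SD, n = 4 each, wild type first).

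CDT1 and geminin act as a pair, in which geminin binds CDT1 after S phase begins and so keeps origins from being licensed again. Gmnn, which encodes geminin, had 83.8, 94.4, 79.5 and 94.6 CPM in wild type 1 to 4 and 58.8, 78.7, 40.2 and 78.0 CPM in labelled knockout 1 to 4. The closest libraries of the 2 groups were less than 1 CPM apart, and its log2 fold change was -0.46 ± 0.20 (SE). Cdt1 had 11.5, 6.21, 12.2 and 38.3 CPM in wild type 1 to 4 and 37.4, 21.4, 19.6 and 20.7 CPM in labelled knockout 1 to 4. Wild type 4 was the highest of all 8 libraries, while wild type 1 to 3 were the lowest 3. The log2 fold change of Cdt1 was 0.54 ± 0.49 (SE), with a 95% interval from -0.56 to 1.64. Without wild type 4 it was 1.31 ± 0.30 (SE), with an adjusted p = 0.0503 in edgeR's quasi-likelihood test, the smallest adjusted p of any member in any alternative tried.

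Among the 11 helicase genes, 10 had a log2 fold change below 0 and 6 of these had an unadjusted p under 0.05, against 49.6% and 7.11% of all genes tested. Mcm10, which binds the loaded ring as it is activated, had 65.1, 62.4, 49.3 and 58.1 CPM in wild type 1 to 4 and 34.7, 45.9, 22.7 and 44.8 CPM in labelled knockout 1 to 4, without overlap. Its log2 fold change was -0.67 ± 0.21 (SE). Mcm7, the most abundant ring subunit per exon length (83.6 CPM per kilobase of exon on average), had 437, 439, 387 and 421 CPM in wild type 1 to 4. In labelled knockout 1 to 4 it had 322, 363, 239 and 352 CPM, again without overlap, and a log2 fold change of -0.40 ± 0.13 (SE). Mcm2 overlapped between the groups, with 261, 173, 197 and 225 CPM in wild type 1 to 4 and 164, 222, 143 and 209 CPM in labelled knockout 1 to 4. Its log2 fold change was -0.21 ± 0.17 (SE).

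The remaining ring subunits give the same picture with 1 exception. Mcm3, Mcm4 and Mcm5 had log2 fold changes of -0.33 ± 0.16, -0.38 ± 0.13 and -0.42 ± 0.18 (SE). Mcm6 had 148, 76.4, 130 and 379 CPM in wild type 1 to 4 and 240, 175, 113 and 236 CPM in labelled knockout 1 to 4. Its groups overlapped fully, because wild type 4 exceeded every other library, and the log2 fold change was 0.06 ± 0.44 (SE). It was -0.18 ± 0.40 without wild type 2 and 0.69 ± 0.28 without wild type 4, so its direction is not settled by these libraries. The 6 ring subunits form a complex with 1 copy of each, yet the wild type spread of Mcm6 (SD 134 CPM) was far above that of Mcm7 (SD 24.1 CPM).

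CDC45 and GINS complete the active helicase. Cdc45 had means of 91.7 ± 10.1 and 68.2 ± 18.6 CPM (SD, n = 4 each) and a log2 fold change of -0.43 ± 0.20 (SE). Gins1 and Gins2 had log2 fold changes of -0.60 ± 0.25 and -0.64 ± 0.23 (SE), while Gins3 had -0.17 ± 0.17. In the deposited annotation 67.3% of the exon bases of Gins2 are shared with Gse1 on the opposite strand, and no strand setting is recorded, so part of its fragments may have been left uncounted or belong to Gse1.

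Of the 8 polymerase genes, 7 had a log2 fold change below 0, against 49.6% of all genes tested. Pole, the catalytic subunit of the leading strand polymerase epsilon, had the lowest log2 fold change of all members. It had 47.0, 41.4, 35.6 and 31.3 CPM in wild type 1 to 4 and 17.2, 31.3, 19.3 and 26.0 CPM in labelled knockout 1 to 4. Labelled knockout 2 and wild type 4 were nearly equal, and the log2 fold change was -0.73 ± 0.21 (SE). Its partner subunit gene Pole2 had a log2 fold change of -0.57 ± 0.19 (SE).

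Pola1, whose product starts each DNA fragment together with primase, had 102, 107, 86.2 and 82.2 CPM in wild type 1 to 4 and 50.3, 68.2, 35.2 and 77.7 CPM in labelled knockout 1 to 4. The groups did not overlap, and the log2 fold change was -0.71 ± 0.22 (SE). Pola2, the gene of the second subunit of the same polymerase, had 103, 92.2, 95.3 and 94.6 CPM in wild type 1 to 4 and 97.7, 99.9, 78.8 and 95.8 CPM in labelled knockout 1 to 4. Its log2 fold change was -0.05 ± 0.10 (SE) with a 95% interval from -0.27 to 0.18. The primase genes Prim1 and Prim2 had log2 fold changes of -0.51 ± 0.19 and -0.42 ± 0.17 (SE). Pold1, the catalytic subunit of the lagging strand polymerase delta, had means of 251 ± 46.5 and 271 ± 19.4 CPM (SD, n = 4 each), with a log2 fold change of 0.11 ± 0.14 (SE). Its accessory subunit Pold2 had -0.28 ± 0.19 (SE).

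At the fork, PCNA encircles DNA and tethers polymerases, and the RFC complex loads it. Pcna was the most abundant member per exon length, with between 91.7 and 221 CPM per kilobase over the 8 libraries. It had 487, 486, 476 and 531 CPM in wild type 1 to 4 and 329, 421, 220 and 420 CPM in labelled knockout 1 to 4, without overlap. The wild type libraries were close together (SD 24.3 CPM) and the labelled knockout libraries were not (SD 95.3 CPM), and the log2 fold change was -0.51 ± 0.18 (SE). A processed pseudogene, Pcna-ps2, held between 1752 and 4893 counts, and since fragments with several alignments were counted at each, some of its fragments may be those of Pcna.

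Of the clamp loader genes, Rfc4 had 108, 101, 100.4 and 109 CPM in wild type 1 to 4 and 63.2, 81.2, 45.5 and 88.0 CPM in labelled knockout 1 to 4. Its log2 fold change was -0.59 ± 0.18 (SE), and that of Rfc3 was -0.28 ± 0.10 (SE). Rfc3 had 116, 137, 120.4 and 126 CPM in wild type 1 to 4 and 105, 106, 88.6 and 111 CPM in labelled knockout 1 to 4, so neither gene overlapped between the groups. Rfc5 had 49.0, 26.6, 41.4 and 101 CPM in wild type 1 to 4 and 85.5, 64.6, 40.8 and 75.2 CPM in labelled knockout 1 to 4. Wild type 4 was again the highest library and wild type 2 the lowest, and the log2 fold change was 0.29 ± 0.38 (SE). Without wild type 4 it was 0.77 ± 0.27 (SE).

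The single strand binding protein genes Rpa1 and Rpa2 had log2 fold changes of -0.39 ± 0.15 and -0.30 ± 0.15 (SE). Lig1, which seals the joined fragments, had one of -0.39 ± 0.19 (SE). Fen1, the nuclease that trims their ends, had one of -0.52 ± 0.21 (SE) at only 5.88 ± 0.501 and 4.09 ± 1.03 CPM (SD, n = 4 each). Its level cannot be compared with the others, because 84.2% of its exon bases are shared with Gm10143 and Tmem258 on the opposite strand.

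Ribonucleotide reductase makes DNA building blocks and needs 2 kinds of subunit, whose genes had unlike values, a difference that was not tested. Rrm1, the large subunit, had 516, 541, 447 and 500.5 CPM in wild type 1 to 4 and 275, 407, 201 and 408 CPM in labelled knockout 1 to 4, without overlap. Its log2 fold change was -0.63 ± 0.21 (SE). Rrm2, the small subunit, whose level is known to follow the cell cycle, had 464, 222, 341 and 558 CPM in wild type 1 to 4 and 429, 451, 260 and 441 CPM in labelled knockout 1 to 4. The wild type libraries enclosed the whole labelled knockout range, and the log2 fold change was -0.003 ± 0.27 (SE). Tyms, the thymidylate synthase, had 73.0, 61.6, 64.7 and 72.7 CPM in wild type 1 to 4 and 36.2, 58.1, 26.1 and 51.6 CPM in labelled knockout 1 to 4. All labelled knockout libraries lay below all wild type ones, and the log2 fold change was -0.66 ± 0.22 (SE). Tk1, the thymidine kinase of the salvage route, had one of -0.47 ± 0.18 (SE).

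**Figure D4:**
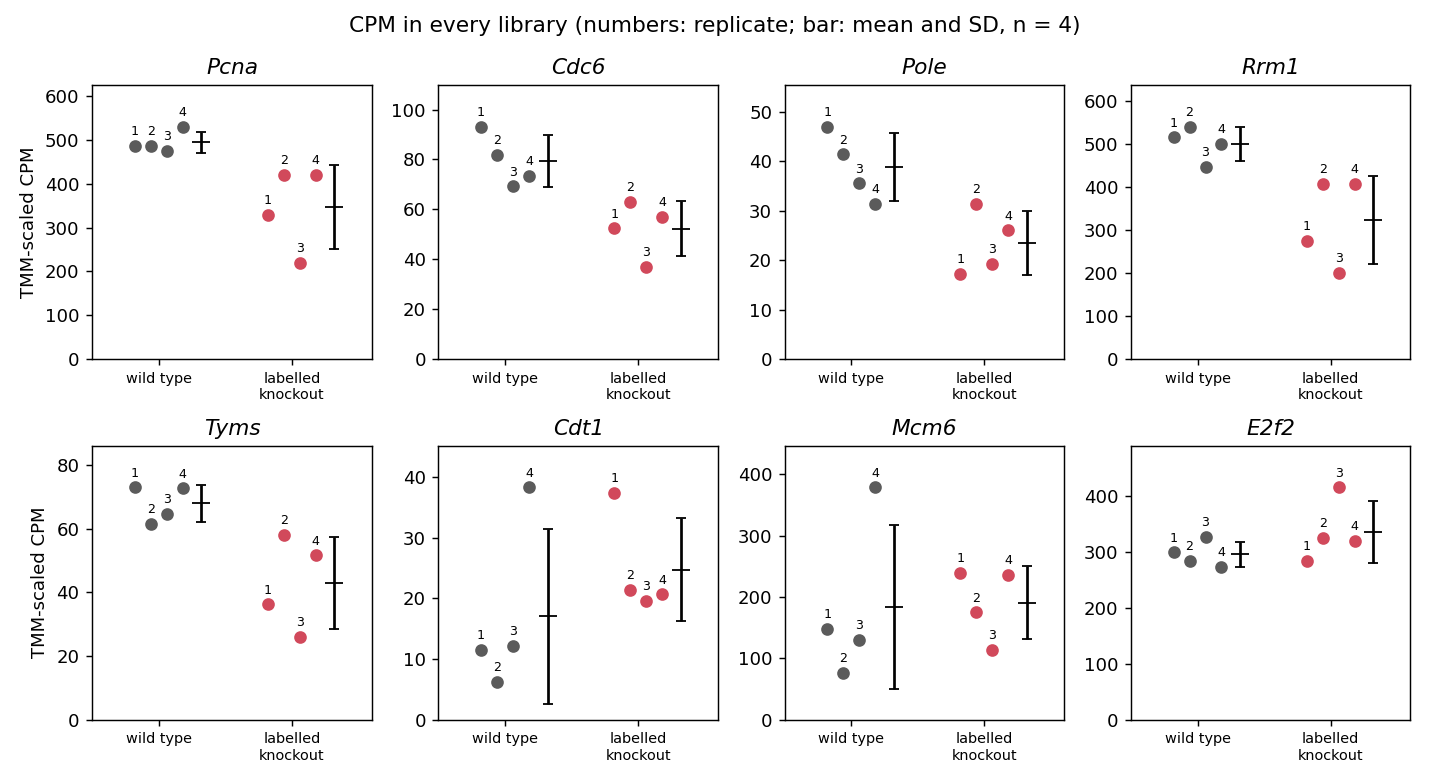
TMM-scaled CPM (y axes, starting at 0) of 8 members in every library (points, with replicate numbers), by group (x axes), with the mean and SD of 4 libraries beside the points. Labelled knockout 3 is the lowest point for Pcna, Cdc6, Rrm1 and Tyms, labelled knockout 1 for Pole, and wild type 4 is the highest point for Cdt1 and Mcm6.

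Of the 4 regulators upstream of the wave, 2 had a log2 fold change below 0, which is 50% against 49.6% of all genes tested. The 2 were the cyclin E genes, and both E2F genes had one above 0. E2f1, the nearest of the 4 to 0, was below 0 in 7 of 18 alternatives. Cyclin E drives CDK2 at the start of S phase and has 2 genes. Ccne2 had 130, 103, 98.0 and 111 CPM in wild type 1 to 4 and 62.5, 83.9, 39.2 and 100.1 CPM in labelled knockout 1 to 4, with labelled knockout 4 inside the wild type range and a log2 fold change of -0.63 ± 0.25 (SE). Ccne1 had 5.67, 4.43, 4.06 and 7.80 CPM in wild type 1 to 4 and 6.43, 5.39, 2.69 and 4.52 CPM in labelled knockout 1 to 4, with a log2 fold change of -0.21 ± 0.30 (SE).

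E2F1 and E2F2 are activators that switch on many of the other members. E2f1 had 6.48, 6.75, 6.03 and 6.40 CPM in wild type 1 to 4 and 7.38, 8.51, 4.19 and 5.73 CPM in labelled knockout 1 to 4. Its labelled knockout libraries lay on both sides of wild type, and the log2 fold change was 0.009 ± 0.22 (SE). E2f2 was far more abundant per exon length, 64.6 against 2.04 CPM per kilobase. It had 299, 283, 326 and 273 CPM in wild type 1 to 4 and 284, 325, 414 and 319 CPM in labelled knockout 1 to 4. Labelled knockout 3, the lowest library for most members, was the highest for E2f2, whose log2 fold change was 0.19 ± 0.12 (SE).

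All 5 genes grouped under chromatin and DNA methylation upkeep had a log2 fold change below 0, against 49.6% of all genes tested. Chaf1a, the nearest of them to 0, was above 0 in 5 of 18 alternatives. Wdr76, a WD repeat gene, had the smallest unadjusted p of the members. It had 26.1, 23.1, 21.3 and 24.4 CPM in wild type 1 to 4 and 15.4, 18.8, 14.4 and 17.4 CPM in labelled knockout 1 to 4. The groups did not overlap and had equal SDs of 2.02 CPM, and the log2 fold change was -0.52 ± 0.13 (SE).

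UHRF1 reads DNA that is methylated on 1 strand and brings in DNMT1, which copies the mark. Dnmt1 had 234, 174.8, 204 and 184 CPM in wild type 1 to 4 and 118, 174.7, 135 and 169 CPM in labelled knockout 1 to 4. Labelled knockout 2 and wild type 2 were nearly equal, and the log2 fold change was -0.42 ± 0.15 (SE). Uhrf1 had 386, 368, 354 and 384 CPM in wild type 1 to 4 and 235, 374, 204 and 356 CPM in labelled knockout 1 to 4. Its values overlapped through labelled knockout 2 and 4, and the log2 fold change was -0.35 ± 0.19 (SE). Chaf1b, a subunit of the histone chaperone CAF-1, had -0.30 ± 0.20 (SE). Chaf1a, the large subunit of CAF-1, had 6.97, 5.01, 6.85 and 13.02 CPM in wild type 1 to 4 and 9.05, 7.35, 7.41 and 7.10 CPM in labelled knockout 1 to 4, with a log2 fold change of -0.04 ± 0.27 (SE). Of its exon bases 52.5% are shared with Ubxn6 on the opposite strand.

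Of the members 6, namely Cdt1, Mcm6, Rfc5, Rrm2, Ccne1 and Chaf1a, had wild type 4 at 1.5 times the mean of wild type 1 to 3 or more. This grouping was made after the values were seen. The ratio ran from 1.63 for Rrm2 to 3.84 for Cdt1, and the next member below was Gins1 at 1.24. Such a ratio was found in 17.4% of all genes tested, so these members are no more frequent than genes in general. As a sum the 6 had 685, 340.4, 535 and 1096 CPM in wild type 1 to 4 and 808, 725, 443 and 784 CPM in labelled knockout 1 to 4. The other 39 summed to between 5070 and 5717 CPM in wild type and between 3236 and 4867 CPM in labelled knockout.

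Other genes of the same processes were listed apart from the members, and whether these lists differ from the members was not tested. Of 46 tested further replication genes 33 had a log2 fold change below 0, with a median of -0.17, 12 lower and 1 higher at an unadjusted p under 0.05. Over all genes tested, 49.6% were below 0, and 7.11% were lower and 5.53% higher at that level. Cdc7, the kinase that activates the loaded ring, had 74.3 ± 4.42 and 49.6 ± 10.8 CPM (SD, n = 4 each). Wdhd1, a fork protein that links helicase and polymerase alpha, had a log2 fold change of -0.56 ± 0.18 (SE). The 1 higher gene was Tk2, the mitochondrial thymidine kinase, with a log2 fold change of 0.85.

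Of 26 genes of replication stress and fork repair 20 were below 0, against 49.6% of all genes tested. At an unadjusted p under 0.05, 10 of them were lower, against 7.11% of all genes. Fanci, of the Fanconi anaemia pathway, had 34.6 ± 5.67 and 19.7 ± 6.07 CPM (SD, n = 4 each), and Fignl1 had a log2 fold change of -0.68 ± 0.20 (SE). The 21 further G1 to S regulators had a median of 0.003, with 10 below 0 and 2 of those, Dtl and Skp2, at an unadjusted p under 0.05. These counts are 47.6% and 9.52% of the list, near the 49.6% and 7.11% of all genes tested. Dtl and Skp2, which target licensing factors and CDK inhibitors for destruction, had log2 fold changes of -0.58 ± 0.19 and -0.53 ± 0.23 (SE). Ccna2, the S phase cyclin, had 41.4, 30.1, 45.1 and 145 CPM in wild type 1 to 4 and 85.0, 55.8, 27.9 and 83.3 CPM in labelled knockout 1 to 4, with wild type 4 again highest.

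The G2 and mitosis list, which marks the later part of the cycle, had 19 of 20 genes below 0 and a median of -0.60, with 13 lower at an unadjusted p under 0.05. Over all genes tested these shares were 49.6% and 7.11%. Bub1, a spindle checkpoint kinase, and Kif20a, a motor of late mitosis, had log2 fold changes of -0.65 ± 0.21 and -0.73 ± 0.24 (SE). Mki67, the proliferation marker Ki-67, had 387, 388, 390.0 and 412 CPM in wild type 1 to 4 and 202, 344, 166 and 355 CPM in labelled knockout 1 to 4. Labelled knockout 1 and 3 were the lowest for Mki67 as for most replication genes. In mean log2 deviation, the 45 members stood at -0.20, 0.07, -0.63 and 0.04 in labelled knockout 1 to 4 and the G2 and mitosis list at -0.42, 0.17, -1.01 and 0.14. None of the genes named from these lists passed the adjusted test (adjusted p of at least 0.391, edgeR quasi-likelihood test).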

How the data were processed

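The deposited values are whole fragment counts per gene. Per the file headers, the authors ran featureCounts 2.0.1 on paired reads against GENCODE M25 exons, kept fragments with several alignments, and no strand setting is recorded. The submitters' processing notes name STAR 2.7.7a, GATK 4.1.9.0 and mm10. The exon length per gene, an annotation (unit: other) deposited in the same table, served for levels per kilobase. The table had 0 columns of other samples.

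Symbols came from a GENCODE M21 name table, which named 55141 genes and left 346 unnamed. Counts were filtered with filterByExpr, scaled with TMM factors and tested with edgeR 4.0.16 in R 4.3.3 (glmQLFit, robust; glmQLFTest, two-sided; genotype as the only term), with Benjamini-Hochberg adjustment over 18884 genes at 0.05. Standard errors were derived from the F value. CPM is the count scaled by library size and TMM factor. Within groups, the least different pair of libraries had a chi-square of 29.5 per degree of freedom, so none was counted as a copy. The common biological coefficient of variation was 0.308. Tested on simulated data of 18264 genes for this comparison, recovery was 1.49% for 67 genes altered 1.5-fold, 49.3% for 67 altered 2-fold and 89.4% for 66 altered 4-fold. It called 2 genes that had been left unaltered.

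The members and lists were chosen with earlier results of these data known. All 45 members are named. Values in every library are given for the 2 smallest and the largest unadjusted p of each role, and for 8 members fixed by name. Of each other list the 2 smallest unadjusted p are named, with Mki67, Ccna2 and, chosen after their values were seen, Tk2, Igll1, Vpreb1 and Ebf1. Of the list genes, Ahsp matched no gene, and Chtf8 matched one that did not pass the filter. Alternatives were DESeq2 1.42.0, limma-voom (limma 3.58.1) with quality weights, other factors and filters, a replicate block, a GC trend, a Y-linked term, left-out gene classes and left-out libraries.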

Additional observations from a re-analysis of the deposited data

Results flagged for a closer look

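Within a group of 4 libraries, 6 of 90 groups of member values had 1 library far from the other 3 by Dixon's 95% criterion. Chance flags about 1 in 20 groups. Orc6 had 74.8 CPM in wild type 4, where the other wild type libraries lay between 66.2 and 67.6. Cdc45 had 76.7 CPM in wild type 3, against 95.2 to 98.2 in the others. Labelled knockout 1 accounted for 3 of the 6: Cdt1 at 37.4 CPM against 19.6 to 21.4, Chaf1a at 9.05 CPM against 7.10 to 7.41, and Pold1 at 242 CPM against 280 to 282. Rrm2 had 259.5 CPM in labelled knockout 3, against 429 to 451 in the others.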

How the results depend on the processing

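Over 18 alternatives the members' median log2 fold change stayed between -0.54 and -0.29, and 0 members were called in any. The lowest median came with the GC trend removed, where the median of all genes was -0.10, and the highest without labelled knockout 3. With 1 library left out the median ran from -0.50 to -0.29 and the members lower at an unadjusted p under 0.05 from 18 to 28 (2.46% to 7.46% of all genes). Upper quartile factors put 59.4% and the GC correction 60.5% of all genes below 0. Over all genes, the count called was 6 by DESeq2 (3 lower, 3 higher) and, when single libraries were dropped, 0 to 363. Dropping wild type 4 gave the 363 (358 higher, 5 lower). With the replicate block 31 members and 7.21% of all genes were lower at an unadjusted p under 0.05. The numbers did not pair the libraries: correlations of same-numbered deviations were 0.007, 0.636, 0.245 and -0.033. Of the 26 members with values in every library, 19 kept their direction in every alternative. E2f1 turned to -0.085 with upper quartile factors, -0.037 with the replicate block, -0.363 with the GC trend removed and -0.052 with the Y-linked term. E2f2 turned to -0.088 with the GC trend removed. Rrm2 turned to 0.026 with no filter, 0.012 with the stricter filter, 0.173 in limma-voom, 0.038 with the replicate block and 0.074 with the Y-linked term. Chaf1a turned to 0.112 in limma-voom, 0.045 with the replicate block and 0.104 with the Y-linked term. With 1 library left out, Mcm6 ran from -0.177 to 0.693, Rrm2 from -0.174 to 0.210, Ccne1 from -0.401 to 0.013, Chaf1a from -0.187 to 0.302, E2f1 from -0.116 to 0.167 and Pola2 from -0.086 to 0.023. The cause was not tested. With only 2 of the 4 E2F motifs, 27.1% of member promoters matched.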

Other observations

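Replication-dependent histone transcripts are made in S phase, and the histone genes of the table (symbols beginning with Hist1 to Hist4) summed to 1361, 1062, 1900 and 5265 CPM in wild type 1 to 4 and to 3156, 2176, 1611 and 2760 CPM in labelled knockout 1 to 4. Wild type 4 was the highest and wild type 2 the lowest library, the same extremes as for Cdt1, Mcm6, Rfc5, Rrm2 and Chaf1a. These genes were grouped for high values in wild type 4 after the values were seen. Their shared highest library is therefore no separate finding. Wild type 2 was the lowest library for 6 members and for 25.3% of all genes tested, the largest share of any library. Labelled knockout 3 was the lowest for 36 members, among them Pcna, Cdc6, Tyms and Rrm1, and for 19.9% of all genes. Whether the histone genes go with any set of members was not tested. Histone genes are similar copies, so their counts are uncertain. How well the mRNA-Seq kit captures histone transcripts was not tested either, so these sums cannot be read as a measure of S phase.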
